A study of Arabidopsis thaliana with 6 samples.

Results

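Gibberellins are diterpenoid hormones that promote growth and germination. The DELLA proteins are nuclear repressors of gibberellin responses, and binding of the hormone to its GID1 receptors marks them for destruction through the F-box protein SLY1. The level of bioactive gibberellin depends on the GA20OX and GA3OX enzymes, which carry out the last steps of synthesis, and on enzymes that inactivate the hormone. Gibberellin is made during seed development and opposes the action of abscisic acid, the hormone of maturation and dormancy.

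The 10 genes described here were taken by their locus identifiers, and they are 10 of the 33602 gene models counted in each library. A group of 5 encodes synthesis enzymes, namely GA20OX1 (AT4G25420), GA20OX2 (AT5G51810), GA20OX3 (AT5G07200), GA3OX1 (AT1G15550) and GA3OX4 (AT1G80330). The other 5 are the DELLA genes of Arabidopsis, namely GAI (AT1G14920), RGA (AT2G01570), RGL1 (AT1G66350), RGL2 (AT3G03450) and RGL3 (AT5G17490). A row was found for each of the 10 genes in each of the 6 libraries.

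Each of the 6 libraries was made from a different amount of total RNA (10, 25, 50, 75 and 100 pg and 5 ng), with 1 library per amount, so that a difference between 2 amounts has no replicate check. All are of wild-type Arabidopsis thaliana, and the study's methods describe them as dilutions of a same RNA from whole cotyledons, laser-dissected from paraffin-embedded Col-0 embryos of several siliques and plants, whereas the labels give the tissue as seed. The cDNA was primed on poly(A) tails and amplified by PCR, the reads carry no strand information, and no treatment or mutation was compared. The 5 ng library was sequenced on another date than the other 5, so that date, amount and any difference in the RNA itself cannot be told apart in a comparison with it.

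The values are counts of read pairs, with 22403342 to 30781753 pairs per library from 10 to 100 pg and 51130296 pairs at 5 ng. They were scaled to TMM-normalized CPM, or TMM CPM (counts scaled to a common total), in which a factor computed over all genes corrects the library total. This factor was between 1.07 and 1.41 from 10 to 100 pg and 0.306 at 5 ng. The 7 seed storage markers, among them cruciferins and albumins, summed to 60.4 to 83.2 TMM CPM in the smaller amounts and to 1669419 TMM CPM at 5 ng, where they took 26094560 of the 51130296 pairs. The same markers had 1769 to 3167 pairs in the smaller amounts. The paper, for its part, reports that its date-corrected counts correlated between the reference amount and the smaller ones. It also describes a good overlap of the genes detected. Repeat sequencing of a same sample on another date agreed less before the paper's date correction than after it. That correction was not repeated here. Whether the 5 ng library is of the same RNA was not tested, and this applies to each comparison with that library. EM6, which is on the storage marker list but is not a cruciferin or albumin gene, went the other way. It had 0 pairs at 5 ng and 3 to 496 pairs in the smaller amounts. Markers of cotyledon photosynthesis summed to 7959 to 12014 TMM CPM in the smaller amounts and to 6962 TMM CPM at 5 ng. On the TMM scale, 3 of these 5 genes lay below all the smaller amounts at 5 ng (LHCB1.3, PSAD1 and GLK1, the last with 0 pairs). LHCB2.1 went the other way and lay above all the smaller amounts at 5 ng. RBCS1A lay within their range and carried 6296 TMM CPM of the 5 ng sum. Epidermal markers summed to 2461 to 3868 TMM CPM in the smaller amounts and to 3641 TMM CPM at 5 ng. PDF1 alone had 2188 to 3532 TMM CPM in the smaller amounts and 3418 TMM CPM at 5 ng. Each of the 4 epidermal markers lay within its range of the smaller amounts at 5 ng. Endosperm markers summed to 104 to 198 TMM CPM in the smaller amounts and to 2606 TMM CPM at 5 ng, of which EPR1 alone had 2600 TMM CPM. Of the other 7 endosperm markers, 4 lay below all the smaller amounts at 5 ng (ZOU at 2.17 TMM CPM against at least 26.9, ALE1 at 0.128 against at least 33.1, MYB118 and FIS2). FIS2 was near the limit of detection, with 1 pair at 5 ng and 2 pairs at 10 pg. AGL62 had 0 pairs at 5 ng, but also 0 pairs at 10 and 25 pg and 1 pair at 50 pg. MYB115 and PHE1 had 0 pairs in all 6 libraries. Of the 8 seed coat markers, which summed to 15.5 to 78.1 TMM CPM in the smaller amounts and to 200.2 TMM CPM at 5 ng, TT10 and STK had pairs only at 5 ng. TT10 carried 139.5 TMM CPM of the 5 ng sum, and BAN had 45 pairs at 10 pg and 104 at 5 ng. TT16 had pairs only at 100 pg (101), TT2 and PER36 only at 10 pg (2 each). TT12 had 2 to 5 pairs in the smaller amounts and 0 at 5 ng. MUM4, at 37.2 TMM CPM at 5 ng, lay within the range of the smaller amounts (13.7 to 78.05). The sums of the 5 root markers were 9.36 to 42.8 TMM CPM in the smaller amounts and 16.6 TMM CPM at 5 ng. WOX5 lay below all the smaller amounts at 5 ng (4.22 TMM CPM against at least 9.28). PLT2 (45 pairs), SHR (7.93 TMM CPM against at most 6.45) and PLT1, with only 1 pair, lay above them. The part of all these markers in the differences at 5 ng given below was not tested, and in such bulk samples fewer cells of a type and less RNA per cell cannot be told apart.

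The DELLA genes are close relatives, so their sequences were compared first, since only pairs assigned unambiguously to 1 gene were counted. All 5 are single-exon genes in the RefSeq annotation of TAIR10.1. The stretches below are shown because they code for the domain that names the family and that contacts the gibberellin receptor. The 15 bases in capitals are the codons at the place of the name-giving motif, followed by the next 15 codons, in the coding strand from 5′ to 3′.
GAI, chr1:5149495-5149554, plus strand: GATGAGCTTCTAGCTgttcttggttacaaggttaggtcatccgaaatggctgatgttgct
RGA, chr2:257156-257215, minus strand: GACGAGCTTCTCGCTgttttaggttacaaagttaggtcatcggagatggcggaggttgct
RGL1, chr1:24748420-24748479, plus strand: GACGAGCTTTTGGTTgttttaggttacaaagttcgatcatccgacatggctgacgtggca
RGL2, chr3:821091-821150, minus strand: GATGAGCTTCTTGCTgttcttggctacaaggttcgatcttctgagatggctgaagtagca
RGL3, chr5:5765729-5765788, minus strand: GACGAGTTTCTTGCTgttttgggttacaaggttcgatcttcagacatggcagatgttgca

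Within these 60 bases, the pairs of genes differed at 9 (GAI and RGA) to 14 (RGA and RGL2) positions. The codons in capitals spell the motif as in the family name in GAI, RGA and RGL2, and a variant of it in RGL1 and RGL3. Over the aligned coding sequences, GAI and RGA were 82.4% identical, RGL2 and RGL3 77.1%, and the other DELLA pairs 66.5% to 69.6%. A run of 30 bases shared with another annotated mRNA was found once in GAI and once in RGA, the same run in both genes, and in none of the other 8 genes. The reads were 100 bases long, but the alignment was local and its settings for ties are not repeated here, so that a small exchange of pairs between GAI and RGA was not tested.

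The synthesis genes lie apart from each other, GA20OX1 on chromosome 4 (12990851 to 12992585), GA20OX2 and GA20OX3 on chromosome 5 (21055179 to 21056881 and 2243553 to 2245339), and GA3OX1 and GA3OX4 on chromosome 1 (5344388 to 5346342 and 30198061 to 30199537), all on the minus strand of TAIR10.1. The closest pair of GA20OX members was GA20OX1 and GA20OX2, with 79.4% identity of the aligned coding bases, and GA20OX3 was closest to GA20OX4, with 80.6%. GA3OX4 is overlapped in an exon by the noncoding gene AT1G80325 on the same strand, so pairs from both cannot be separated there by strand. None of the other 9 genes overlapped another annotated gene.

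The number of the 10 genes with at least 1 pair was 7, 7, 7, 6, 8 and 8 at 10, 25, 50, 75 and 100 pg and 5 ng. The share of all 33602 gene models detected in the same libraries was 47.4%, 50.1%, 55%, 58.1%, 57.3% and 51.9%. The 5 DELLA genes were detected in all 6 libraries, as were 38% of all gene models. Of the synthesis genes, 2, 2, 2, 1, 3 and 3 were detected, and GA20OX3 alone was found in every library.

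GA20OX3, a gibberellin 20-oxidase gene, was by far the most abundant of the 10 transcripts. It had 5210, 5430, 7070, 4384 and 7401 pairs at 10, 25, 50, 75 and 100 pg, and 45321 pairs at 5 ng. After scaling, this was 182, 155, 186, 145 and 170.0 TMM CPM in the smaller amounts and 2899 TMM CPM at 5 ng. Its highest value among the 5 smaller amounts was 1.28 times its lowest, so that the level differed little between the smaller amounts. Among the 12558 genes with at least 3 pairs in each of these 5 libraries, the median ratio of highest to lowest was 4.26, and 52.4% reached 4-fold.

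The 5 ng library stood apart from all of the smaller amounts for GA20OX3, with a level 15.6 to 20.02 times as high on the TMM scale. By level per kilobase of gene model, GA20OX3 ranked 1358, 1352, 1069, 1308 and 923 among the 15936 to 19539 genes detected from 10 to 100 pg, and 78 among the 17446 genes detected at 5 ng. With the library totals alone, its values were 195, 186, 247, 196 and 240.4 CPM in the smaller amounts and 886 CPM at 5 ng, again the highest value of the 6. The sum of the storage markers given above was also highest in this library.

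GA20OX2, another 20-oxidase gene, was seen almost exclusively at 5 ng. It had 0 pairs at 10, 25, 50 and 75 pg, 43 pairs at 100 pg and 2873 pairs at 5 ng. This corresponds to 0.988 TMM CPM at 100 pg and 184 TMM CPM at 5 ng, a level 186 times as high, and to rank 1181 of the genes detected at 5 ng. The 0 counts allow up to 0.105, 0.0856, 0.0788 and 0.0991 TMM CPM at 10, 25, 50 and 75 pg, taking 3 pairs as the limit per library and covering counting error only.

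GA20OX1, a 20-oxidase gene with a known part in stem growth, was near the limit of detection. It had 3, 2, 26, 0 and 54 pairs from 10 to 100 pg and 0 pairs at 5 ng, or at most 1.24 TMM CPM. Its values at 50 and 100 pg were above those of the neighbouring 25 and 75 pg libraries, so they followed no order of the amounts. The other GA20OX genes were also low. GA20OX4 had 0, 3, 8, 5 and 6 pairs from 10 to 100 pg and 0 pairs at 5 ng, and GA20OX5 had 0 pairs in all 6 libraries.

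The 3-oxidase genes, whose products form the bioactive hormone, were hardly seen. GA3OX1 had 0 pairs in all 6 libraries, as did 31.8% of all gene models, which allows up to 0.192 TMM CPM at 5 ng and 0.0689 to 0.105 TMM CPM in the smaller amounts. GA3OX4 had 0 pairs at each of the 5 smaller amounts and 101 pairs, or 6.46 TMM CPM, at 5 ng. GA3OX3 also had pairs only at 5 ng, 40 of them, although it was less like GA3OX4 (56.9% identity of aligned coding bases) than were GA3OX1 (65.7%) and GA3OX2 (63.3%), which had 0 pairs in all 6 libraries. Of all gene models, 2.91% had pairs at 5 ng and none in the smaller amounts.

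Among the pairs of the 5 synthesis genes, GA20OX3 took 99.9%, 99.96%, 99.6%, 100% and 98.7% from 10 to 100 pg, with an exact Clopper-Pearson 95% interval of 98.4% to 98.95% for the lowest of these. At 5 ng it took 93.8% (93.6% to 94.05%) of 48295 pairs, and GA20OX2 took 5.95% (5.74% to 6.16%). The intervals cover counting error only, since pairs copied by PCR are not independent molecules. GA20OX3 thus dominated the group in all 6 libraries, and the interval at 5 ng did not overlap those of the 5 smaller amounts.

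**Figure D1:**
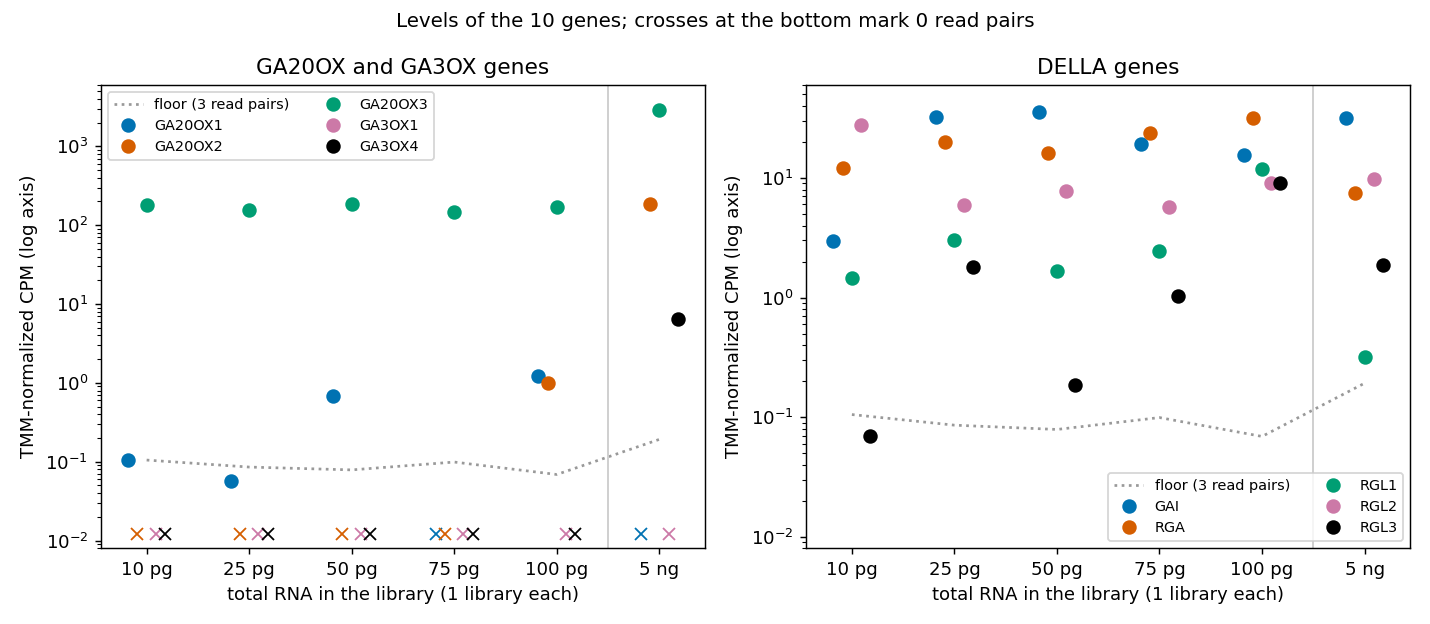
TMM-normalized CPM of each gene on a log axis against the amount of total RNA, 1 library per amount, with the synthesis genes on the left and the DELLA genes on the right. Points are single libraries, crosses at the bottom stand for 0 pairs, and the dotted line is the level of 3 pairs. GA20OX3 lies between 145 and 186 TMM CPM in the 5 smaller amounts and at 2899 TMM CPM at 5 ng, while the DELLA genes lie between 0.0699 and 35.9 TMM CPM.

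The DELLA genes together had 44.3, 63.1, 61.8, 52.1 and 77.5 TMM CPM at 10, 25, 50, 75 and 100 pg, and 51.2 TMM CPM at 5 ng. The sum at 5 ng therefore lay within the range of the smaller amounts, whereas that of the synthesis genes, 3090 TMM CPM at 5 ng and 145 to 187 TMM CPM in the smaller amounts, did not. On the library totals alone, the DELLA sum was lowest at 5 ng, with 47.5 to 109.6 CPM in the smaller amounts and 15.7 CPM at 5 ng. The place of the DELLA sum thus depends on the scaling.

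GAI, first known from a dwarf mutant insensitive to gibberellin, had 85, 1127, 1368, 583 and 680 pairs from 10 to 100 pg and 495 pairs at 5 ng. On the TMM scale this was 2.97, 32.2, 35.9, 19.3 and 15.6 TMM CPM in the smaller amounts and 31.7 TMM CPM at 5 ng. The 10 pg library was low and the other 5 lay within 2.3-fold of each other. RGA, which acts with GAI to restrain stem growth, had 346, 706, 615, 715 and 1389 pairs from 10 to 100 pg and 118 pairs at 5 ng.

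Scaled, RGA reached 12.1, 20.2, 16.2, 23.6 and 31.9 TMM CPM in the smaller amounts and 7.55 TMM CPM at 5 ng. It was the most even of the DELLA genes, its highest value from 10 to 100 pg being 2.64 times its lowest, and the 5 ng library was lowest of the 6. RGL2, known as the main DELLA repressor of seed germination, had 793, 207, 297, 173 and 397 pairs from 10 to 100 pg and 153 pairs at 5 ng. This gave 27.7, 5.91, 7.81, 5.72 and 9.12 TMM CPM in the smaller amounts and 9.79 TMM CPM at 5 ng, so that the 10 pg library was high and the others differed little.

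RGL1, a further repressor of gibberellin responses, had 42, 106, 63, 74 and 514 pairs from 10 to 100 pg and 5 pairs at 5 ng. Its levels were 1.47, 3.03, 1.66, 2.45 and 11.8 TMM CPM in the smaller amounts and 0.32 TMM CPM at 5 ng. RGL1 was thus highest at 100 pg and lowest at 5 ng. RGL3, which has been linked to jasmonate responses, had 2, 63, 7, 31 and 393 pairs from 10 to 100 pg and 29 pairs at 5 ng, or 0.0699, 1.80, 0.184, 1.02 and 9.03 TMM CPM in the smaller amounts and 1.86 TMM CPM at 5 ng. It was also highest at 100 pg, and its 10 pg count lay under the limit of 3 pairs.

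By median level per kilobase over 10 to 100 pg, the order was GA20OX3 (105.8 TMM CPM per kilobase), GAI (9.05), RGA (8.76), RGL2 (3.77), RGL1 (1.32), RGL3 (0.508) and GA20OX1 (0.0818), with the other 3 genes at a median of 0. GAI and RGA were neighbours whose ranges overlapped (1.40 to 16.9 and 5.25 to 13.9 TMM CPM per kilobase). The range of RGL2, 2.76 to 13.4 TMM CPM per kilobase, overlapped both, and it also overlapped that of RGL1, 0.793 to 6.39. GA20OX3, at 90.1 to 116 TMM CPM per kilobase, overlapped none of the others.

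The make-up of the DELLA pairs is given as a description, since its intervals cover counting error only, pairs copied by PCR are not independent molecules, and the spread between libraries of 1 amount was not measured. GAI took 6.70%, 51.0%, 58.2%, 37.0% and 20.2% of them from 10 to 100 pg (exact 95% interval at 10 pg, 5.39% to 8.22%) and 61.9% at 5 ng (58.4% to 65.3%). RGL2 took 62.5% at 10 pg (59.8% to 65.2%), between 9.37% and 12.6% from 25 to 100 pg, and 19.1% at 5 ng. The leading DELLA transcript was therefore RGL2 at 10 pg, GAI at 25 and 50 pg and at 5 ng, and RGA at 75 and 100 pg. RGA took 26.2% to 45.4% in the smaller amounts and 14.8% (12.4% to 17.4%) at 5 ng. These shares do not depend on the scaling between libraries.

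**Figure D2:**
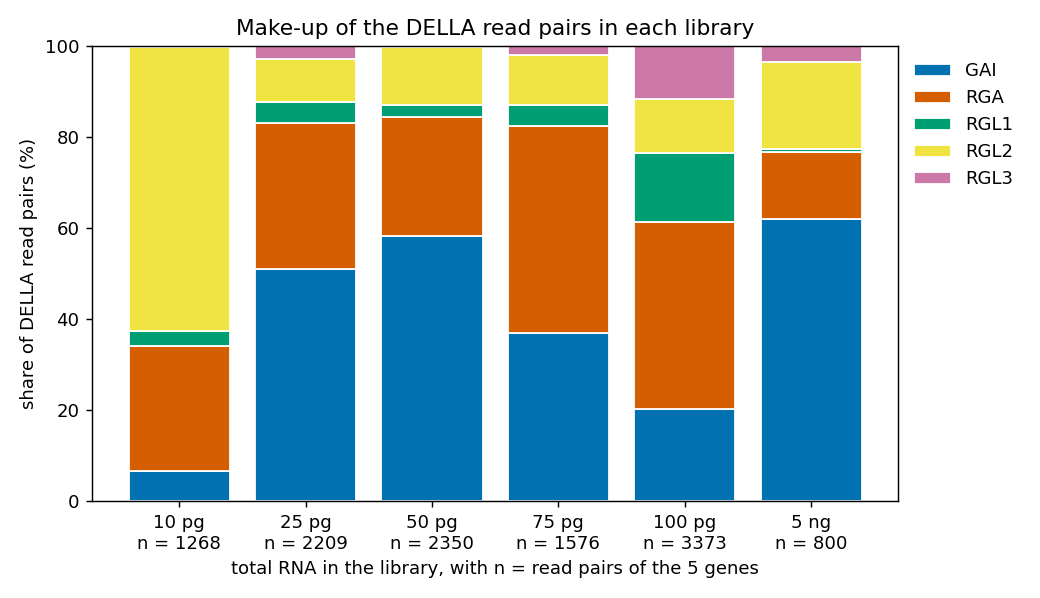
Share of the read pairs of the 5 DELLA genes taken by each gene, in percent, as stacked bars for the 6 libraries, with the number of pairs under each bar. RGL2 fills 62.5% of the bar at 10 pg and 19.1% or less of the others, and GAI fills 6.70% at 10 pg and 61.9% at 5 ng.

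From 10 to 100 pg, the ratio of highest to lowest TMM CPM was 12.1 for GAI, 8.05 for RGL1, 4.85 for RGL2 and 2.64 for RGA. The median of these 4 genes was 6.45, beside 4.26 over all 12558 genes with at least 3 pairs in each library, and 3 of the 4 reached 4-fold, beside 52.4% of those genes. RGL3 failed the minimum of 3 pairs at 10 pg. Over 50 to 100 pg alone, the ratios were 2.30 for GAI, 1.97 for RGA, 7.13 for RGL1, 1.60 for RGL2 and 49.1 for RGL3. The median over the 15830 genes so measured was 2.17, and 21.5% of them reached 4-fold, as did RGL1 and RGL3.

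The first comparison was between 100 pg and 5 ng, that is, between the largest of the small amounts and the amount used as reference. GA20OX2, GA20OX3 and GA3OX4 were lower at 100 pg, GA20OX1 was higher, and RGL1, RGA and RGL3 were higher. The log2 ratio of 100 pg to 5 ng, computed on TMM CPM plus 1, was -6.54 for GA20OX2, -4.08 for GA20OX3 and -2.90 for GA3OX4, so 3 of the 4 synthesis genes with pairs in either library were at least 4-fold lower at 100 pg. Of all 21008 genes detected in either library, 13.4% were at least 4-fold lower at 100 pg, and the median log2 ratio was 0.07. Without a pseudocount, GA3OX4 was at least 93.8-fold lower at 100 pg, taking 3 pairs as the limit per library, and GA20OX1 was at least 6.46-fold higher.

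In the same comparison, RGL1 had a log2 ratio of 3.28, RGA 1.94, RGL3 1.81, RGL2 -0.09 and GAI -0.97. Only RGL1 was at least 4-fold higher at 100 pg on this scale, while 16.7% of all genes detected in either library were. The call for RGL1 rests on the 100 pg library, since with 75 or 50 pg in its place the log2 ratio to 5 ng was 1.38 or 1.01, and that of RGL3 was -0.50 or -1.27. The median of the DELLA genes was 1.81 and that of the synthesis genes -3.49. With the library totals alone, which shift the median of all genes to 1.57, the ratio of GAI became 1.11 and that of RGL2 1.80, so the direction of these genes depends on the scaling. With that scaling, GA20OX2 was at -4.58, GA20OX3 at -1.88 and GA3OX4 at -1.57, still lower at 100 pg, and RGL1 was at 4.01.

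**Figure D3:**
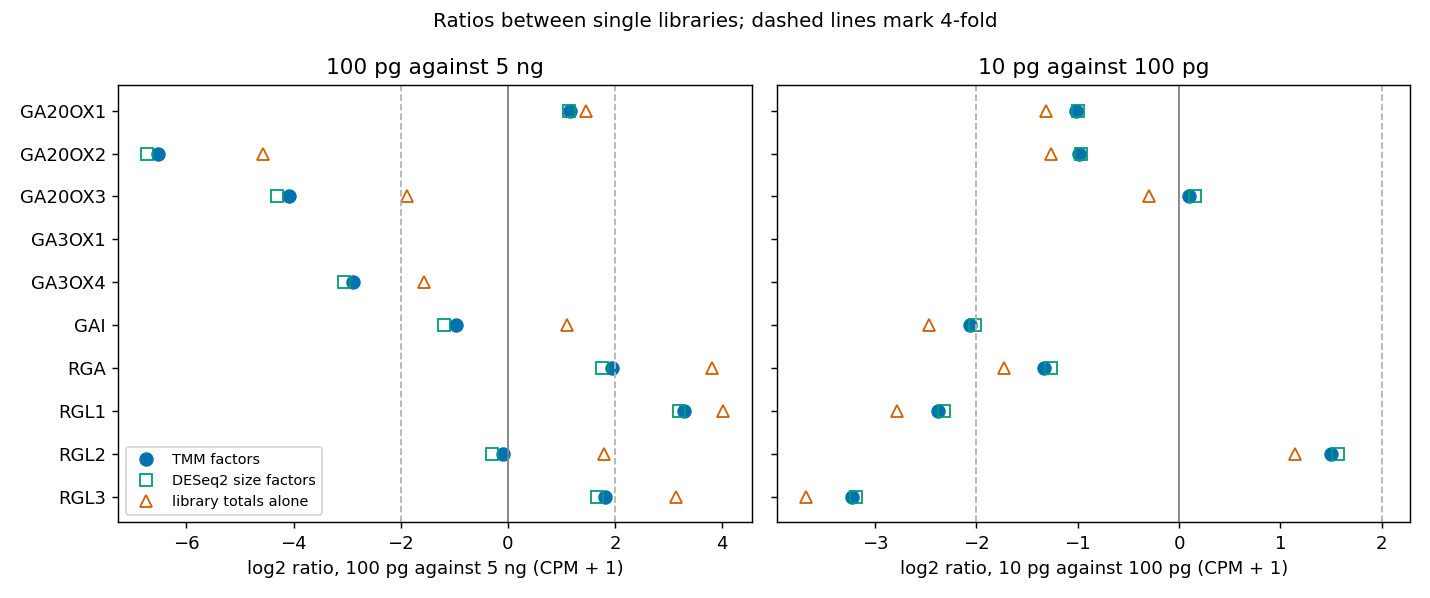
Log2 ratios of 100 pg to 5 ng (left) and of 10 pg to 100 pg (right) for each gene, on CPM plus 1, with TMM factors (filled circles), DESeq2 size factors (squares) and library totals alone (triangles). Dashed lines mark 4-fold in either direction, each ratio is between 2 single libraries, and no point is drawn for a gene with 0 pairs in both. GA20OX2, GA20OX3 and GA3OX4 lie left of 0 in the left panel under all 3 scalings, and the triangles of GAI and RGL2 lie on the other side of 0 from their circles.

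Placed against the range of the 5 smaller amounts, the 5 ng library lay above it for GA20OX2, GA20OX3 and GA3OX4 and within it for GA20OX1. It lay below the range for RGA and RGL1 and within it for GAI, RGL2 and RGL3. Of the 22904 genes detected in at least 1 library, 25.8% lay above the range at 5 ng and 21.8% below. On library totals alone, RGL2 also lay below the range, and with DESeq2 size factors GAI lay above it.

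The other comparison was between 10 pg and 100 pg, the extremes of the smaller amounts, which were sequenced on the same date. GA20OX3 hardly differed, with a log2 ratio of 0.10. DELLA genes other than RGL2 were lower at 10 pg, with log2 ratios of -3.23 for RGL3, -2.38 for RGL1, -2.07 for GAI and -1.33 for RGA, and RGL2 was higher, at 1.5. Thus 3 of the 5 DELLA genes were at least 4-fold lower at 10 pg, beside 20.7% of the 19923 genes detected in either library, and their median was -2.07 beside -0.11 over all those genes. None was at least 4-fold higher, beside 6.59% of all those genes.

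Since the RGL3 count at 10 pg was 2 pairs, its ratio of 10 to 100 pg has a counting interval of -10.1 to -5.15 on the log2 scale without a pseudocount. GA20OX2, with 0 pairs at 10 pg, was at least 9.42-fold lower at 10 pg than at 100 pg. The ratio of GAI rests on the 10 pg library, since with 25 pg in its place the log2 ratio to 100 pg was 0.997. Those of RGL1 and RGL3 rest on the 100 pg library, since against 75 pg they were -0.48 and -0.92 and against 50 pg -0.11 and -0.15.

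Whether levels followed the amount was asked with the slope on its log2 value in the 5 libraries of 100 pg or less, by edgeR's quasi-likelihood test, with 3 residual degrees of freedom. None of the 7 genes that passed the filter on low counts had an adjusted p under 0.05. No gene at all did, 0% of the 17366 tested, while 2388 genes (13.8%) had an unadjusted p under 0.05 and DESeq2 called 1730 genes, none of them among the 10. For GA20OX3 the slope was -0.02 ± 0.10 per doubling of the amount (SE, adjusted p = 0.932). The DELLA slopes were 1.49 ± 0.98 for RGL3 (adjusted p = 0.512), 0.71 ± 0.68 for RGL1 (0.657), 0.50 ± 0.57 for GAI (0.721), 0.36 ± 0.30 for RGA (0.603) and -0.50 ± 0.41 for RGL2 (0.596). The slope of GA20OX1 was 0.99 ± 0.92 (adjusted p = 0.645), and GA20OX2, GA3OX1 and GA3OX4 did not pass the filter. Without the 100 pg library the slope was 0.16 for RGL1 and 0.59 for RGL3. The SE is large for the DELLA genes beside that of GA20OX3. The p-values measure only the scatter of single libraries around the slope, with each gene's variance drawn towards a trend over all genes tested.

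Upstream of the GA20OX step, the early synthesis genes were also mostly highest at 5 ng on the TMM scale, but not on library totals. KAO1, one of the ent-kaurenoic acid oxidase genes, had 42.7, 20.8, 42.2, 33.6 and 19.8 TMM CPM in the smaller amounts and 93.7 TMM CPM at 5 ng. GA3, the ent-kaurene oxidase gene, had 0.559, 8.31, 16.0, 14.5 and 11.7 TMM CPM in the smaller amounts and 56.7 TMM CPM at 5 ng. Of the 5 early genes, 4 lay above the range of the smaller amounts at 5 ng on the TMM scale, beside 25.8% of all genes, and 3 were at least 4-fold lower at 100 pg than at 5 ng, beside 13.4% of all genes. On library totals alone, the log2 ratios of KAO1 and GA3 were -0.03 and -0.07, GA2, GA3 and KAO1 lay within the range of the smaller amounts at 5 ng, and GA1, with 3 pairs at 5 ng and 0 in the others, was the only early gene above it.

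Genes of gibberellin inactivation were low in these libraries. GA2OX2, which encodes a 2-oxidase that inactivates gibberellins, had 13.2, 0.771, 8.09, 5.88 and 10.9 TMM CPM in the smaller amounts and 7.1 TMM CPM at 5 ng. GA2OX8 had 0, 1, 199, 19 and 0 pairs from 10 to 100 pg and 47 pairs at 5 ng. Of the 11 genes listed, GA2OX3, GA2OX6 and GA2OX7 had 0 pairs in all 6 libraries, and 3 lay above the range of the smaller amounts at 5 ng (25.8% of all genes did). Of the 6 with pairs at 100 pg or 5 ng, 3 were at least 4-fold lower at 100 pg on the TMM scale, beside 13.4% of all genes, and none was at least 4-fold higher. These counts depend on the scaling. With the library totals alone, the log2 ratios of these 3, GA2OX8, GAMT1 and ELA1, were -0.94, -1.35 and -1.34, short of 4-fold. That of GA2OX2 was 2.37, past 4-fold higher. On that scaling, 8826 of the 21008 genes detected in either library were at least 4-fold higher and 873 at least 4-fold lower.

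Of the genes that perceive gibberellin or act on the DELLA proteins, SLY1 and SEC were the most abundant. SLY1, the F-box gene of DELLA destruction, had 38.5, 48.4, 28.0, 33.5 and 24.1 TMM CPM in the smaller amounts and 30.5 TMM CPM at 5 ng. SEC, an O-GlcNAc transferase gene whose product modifies RGA, had 28.8, 19.4, 33.4, 23.0 and 35.0 TMM CPM in the smaller amounts and 19.2 TMM CPM at 5 ng. On library totals alone, SLY1 had 34.1 to 58.2 CPM in the smaller amounts and 9.33 CPM at 5 ng, and SEC had 23.4 to 49.5 and 5.87 CPM, so that both were lowest at 5 ng. Of the 7 genes of this list, which holds the 3 GID1 receptors, 2 were at least 4-fold higher at 100 pg than at 5 ng on the TMM scale, beside 16.7% of all genes, and none was at least 4-fold lower. With the library totals alone, GID1A and SEC also passed 4-fold, with log2 ratios of 2.94 and 2.88, as did 8826 of the 21008 genes detected in either library. In the slope test, none of the 7 had an adjusted p under 0.05 by edgeR (smallest 0.312).

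**Figure D4:**
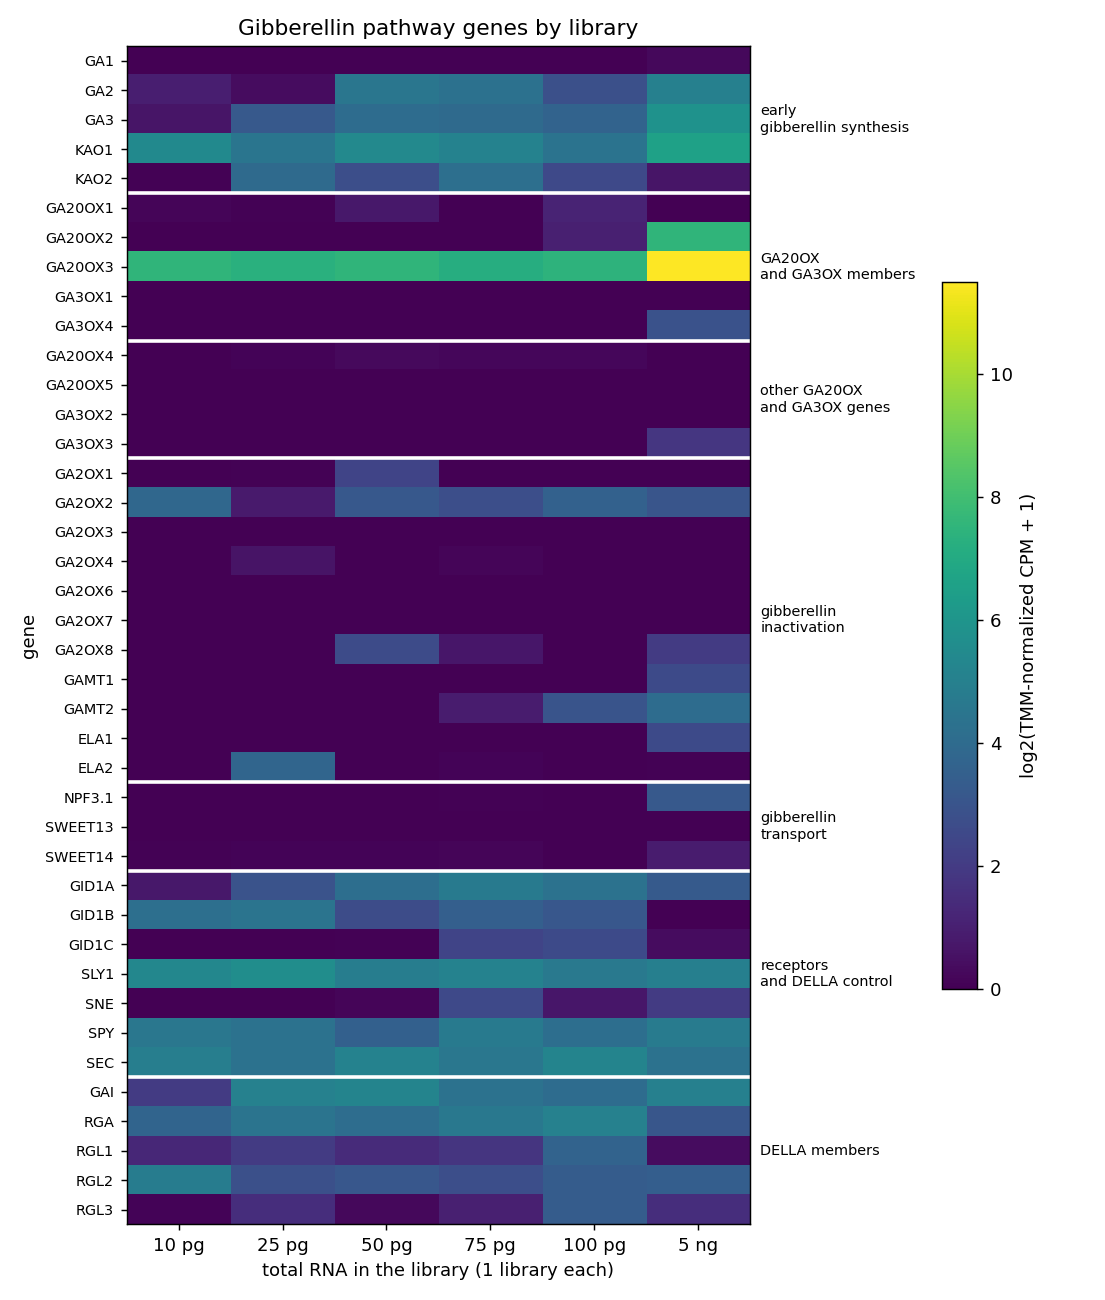
Log2 of TMM CPM plus 1 for the gibberellin pathway genes (down the page, grouped from early synthesis to the DELLA genes) in the 6 libraries (across, 1 library per amount), with brighter colours for higher levels. GA20OX3 is the brightest gene of the map in every library, and GA3OX1 and its relatives GA20OX5 and GA3OX2 are at 0 throughout.

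The genes most like GA20OX3 over the 6 libraries were looked for among 11006 genes with a mean of at least 10 TMM CPM, by the root mean square difference of their centred log2 levels. The nearest was PRXR1 (AT4G21960), annotated as a peroxidase, at a difference of 0.0949, with 706 to 827 TMM CPM in the smaller amounts and 11677 TMM CPM at 5 ng. POM1 (AT1G05850) followed at 0.197 and MIPS1 (AT4G39800), a myo-inositol phosphate synthase gene, at 0.214. For GAI, the nearest were SMO2-2 (AT2G29390), a sterol methyl oxidase gene, at 0.211, AT1G77480 at 0.221 and AT4G24805 at 0.244. With 6 libraries, of which 1 stands apart, this likeness is a description only.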

How the data were processed

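Total RNA of 6 amounts was sequenced, 1 library each, and groups follow the sample labels. After trimming and removal of ribosomal reads, the authors mapped the reads on 33602 TAIR10 gene models with Bowtie2 in its local mode. They deposited the raw counts of read pairs with both reads unambiguously on 1 gene, with single-read counts beside them. The submitters' processing notes also name TopHat2. The date correction described for the study was not repeated.

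CPM and TMM factors were computed with edgeR 4.0.16 in R 4.3.3. Ratios are on log2(TMM CPM + 1), with 4-fold as a limit and no test. The slope over the 5 libraries from 10 to 100 pg was fitted over all genes with edgeR's quasi-likelihood test and filterByExpr, with Benjamini-Hochberg adjustment and a threshold of 0.05. DESeq2 1.42.0 served for alternatives. Tables, sequences and plots used Python 3.11.15, NumPy 2.4.6, pandas 2.3.3, SciPy 1.17.1, Biopython 1.88 and matplotlib 3.10.9. A count of 0 was given the limit of 3 counts per library.

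The genes and lists were chosen with earlier results of these data known. Besides the 10 genes, the lists hold 46 pathway genes in 7 lists and 37 marker genes in 6 lists, of which the genes named are the 2 with the highest median TMM CPM from 10 to 100 pg per pathway list, the remaining GA20OX and GA3OX genes, and markers that define a list or are at 0. GA2OX3, GA2OX6, GA2OX7, GAMT1, GAMT2, ELA1, ELA2, GA1, GA2, GID1A, MYB65, XERICO and AGL15 were named after their values were seen. So were the storage, photosynthesis, epidermal, endosperm, seed coat and root markers singled out. Of the 93 listed genes, 92 had a symbol or synonym that the annotation gives for the locus. Coordinates and sequences are those of RefSeq's TAIR10.1, whose spliced lengths differ from the gene models of the files for most of the 10 genes. Alternatives concerned the tool, scaling, filter, pseudocount, count minimum, depth, single reads and libraries used. The position of 5 ng under other scalings, or without a smaller library, was added after seeing the data.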

Additional observations from a re-analysis of the deposited data

How the results depend on the processing

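No paired analysis was possible because each amount has 1 library. The number of genes with a slope was 0 under the other edgeR settings, leaving out each library included, and 1730 with DESeq2. Leaving out 1 library at a time, the slope ranged from -0.048 to 0.028 for GA20OX3, from -0.55 to 0.95 for GAI and from -0.71 to 0.23 for RGL2, each changing sign without the 10 pg library (0.028, -0.55 and 0.23). It ranged from 0.16 to 0.85 for RGL1 and from 0.59 to 1.95 for RGL3, and no adjusted p of these genes fell under 0.05. For 100 pg against 5 ng, the number of synthesis genes at least 4-fold lower was 3, and 1 with library totals alone, and the number at least 4-fold higher was 0, and 1 with a pseudocount of 0.1 CPM. Of the 21008 genes detected in either library, 2818 were at least 4-fold lower on the TMM scale and 873 with library totals alone. The number of DELLA genes at least 4-fold higher was 1, and 3 with library totals alone, with totals without the storage genes or with a pseudocount of 0.1 CPM, and 0 with a pseudocount of 5 CPM or with 75 or 50 pg in place of 100 pg. Of the 21008 genes, 3504 were at least 4-fold higher on the TMM scale. The number was 8826 with library totals alone and 6115 with totals without the storage genes. Numbers over all genes are not given for other pseudocounts or for other libraries. For 10 pg against 100 pg, the number of synthesis genes at least 4-fold lower was 0, and 2 with a pseudocount of 0.1 CPM. The number of DELLA genes at least 4-fold lower was 3, 1 with 75 or 50 pg in place of 100 pg, and 0 with a pseudocount of 5 CPM or with 25 pg in place of 10 pg, where GAI turned to 0.997 on the log2 scale; 1 was at least 4-fold higher with 75 pg in place of 100 pg. The 5 ng library lay above the range of the smaller amounts for 1 DELLA gene with DESeq2 size factors, and for 0 to 1 DELLA genes when 1 smaller library was left out (1 without 10 pg or without 100 pg). It lay below that range for 0 to 1 synthesis genes (1 without 75 pg). Numbers of genes detected kept within 1.5 times under every count minimum, thinning and single reads. GA3OX1, GA3OX4, GA20OX2, GA20OX1 and RGL3 had 3 pairs or fewer in at least 1 library, and the part of sequencing depth in this was not tested.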

Other observations

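Among 7 genes listed as regulators of gibberellin genes was FUS3, a regulator of embryo maturation that represses gibberellin synthesis. FUS3 had 141, 142, 162, 132 and 90.6 TMM CPM at 10, 25, 50, 75 and 100 pg and 69.1 TMM CPM at 5 ng. BME3, a GATA factor gene of germination, had 65.5, 37.0, 33.8, 28.1 and 52.0 TMM CPM in the smaller amounts and 47.1 TMM CPM at 5 ng. At 100 pg, 3 of the 7 were at least 4-fold higher than at 5 ng on the TMM scale and 2 at least 4-fold lower, beside 16.7% and 13.4% of all genes. With the library totals alone, FUS3 and BME3 also passed 4-fold higher, with log2 ratios of 2.545 and 2.28. On that scaling, 8826 of the 21008 genes detected in either library were at least 4-fold higher and 873 at least 4-fold lower. AGL15 moved from -2.41 to -0.24 and was no longer 4-fold lower.

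Among 9 partners and targets of the DELLA proteins, the DELLA-binding factor genes IDD1 and IDD2 had 69.2 and 26.8 TMM CPM at 10 pg, 43.8 and 31.5 TMM CPM at 100 pg, and 35.4 and 2.05 TMM CPM at 5 ng. In that list, 5 of the 9 genes were at least 4-fold higher at 100 pg than at 5 ng on the TMM scale and 1 at least 4-fold lower, beside 16.7% and 13.4% of all genes. With the library totals alone, IDD1 and MYB65 also passed 4-fold higher, with log2 ratios of 2.41 and 2.99. On that scaling, 8826 of the 21008 genes detected in either library were at least 4-fold higher and 873 at least 4-fold lower. XERICO moved from -3.90 to -1.82 and was no longer 4-fold lower. Of the 3 transporter genes, SWEET14 had at most 3 pairs from 10 to 100 pg and 13 pairs at 5 ng, and NPF3.1 had 1 pair at 75 pg, 130 pairs at 5 ng and 0 pairs in the other 4 libraries.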
